A study of Mus musculus with 6 samples.

Results

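Cultured mouse hippocampal neurons were compared after 3 h in raised KCl and without treatment, to describe the groups of genes that rose or fell beyond the immediate early genes. The comparison used 4 of the 6 RNA-seq libraries of the study: 2 of untreated neurons and 2 of neurons kept for 3 h in 55 mM KCl. All were primary cultures from C57bl/6 embryos of stage E16.5 that had spent 10 days in vitro, with no transgene or deletion named in the labels of either group, and the other 2 libraries, of neurons treated for 0.5 h, served to estimate the spread. The design text calls the libraries of a group biological duplicates and does not say which animals or cultures each came from. All 15895 genes that passed a filter on low counts entered the test.

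Raised extracellular potassium depolarises neurons, opens voltage-gated calcium channels and sets off calcium-dependent kinases that act on transcription factors already present, such as CREB and SRF. The first genes to respond, the immediate early genes, largely encode transcription factors. They are followed by a later wave, which in neurons includes secreted factors, synaptic and ion channel proteins and feedback inhibitors of the signalling itself. The response after 3 h therefore holds late-response genes together with the early genes that are still elevated.

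CREB binds a DNA element, the cAMP response element (CRE), with the letters TGACGTCA, and many activity-regulated genes carry it close to their start. The following windows show the element, in capitals, with its surroundings in genes that were at least 2-fold higher at 3 h. They were chosen after their values were seen, to show how the same 8 letters sit in promoters of genes with different roles. Sequences are from RefSeq promoter windows of build GRCm38.p6, written 5′ to 3′ on the strand of the gene. Mcam encodes a cell adhesion molecule, Pcsk1 a prohormone-cleaving protease, Scg2 a granin of dense-core vesicles and Dusp1 a MAP kinase phosphatase. Ell2 encodes an elongation factor of RNA polymerase II, Creb5 a relative of CREB, Plk2 a kinase of synaptic scaling and Btg2 an antiproliferative factor. Dusp1 and Btg2 are themselves counted here among the immediate early genes. Ppp1r15a encodes a regulatory subunit that directs phosphatase to the translation factor eIF2, Dio2 the enzyme that activates thyroid hormone, Tra2a a splicing regulator and Flcn the tumour suppressor folliculin.
Mcam (chr9:44134613-44134652, plus strand): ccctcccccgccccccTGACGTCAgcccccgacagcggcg
Pcsk1 (chr13:75089763-75089802, plus strand): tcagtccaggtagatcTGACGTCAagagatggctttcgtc
Scg2 (chr1:79440071-79440110, minus strand): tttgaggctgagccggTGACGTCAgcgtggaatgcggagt
Dusp1 (chr17:26508592-26508631, minus strand): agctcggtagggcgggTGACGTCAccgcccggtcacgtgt
Ell2 (chr13:75707270-75707309, plus strand): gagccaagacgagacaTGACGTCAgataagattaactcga
Creb5 (chr6:53287242-53287281, plus strand): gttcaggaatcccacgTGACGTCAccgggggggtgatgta
Plk2 (chr13:110394966-110395005, plus strand): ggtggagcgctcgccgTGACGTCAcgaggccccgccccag
Btg2 (chr1:134079298-134079337, minus strand): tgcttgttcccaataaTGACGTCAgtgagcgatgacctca
Ppp1r15a (chr7:45526257-45526296, minus strand): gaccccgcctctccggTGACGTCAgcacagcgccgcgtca
Dio2 (chr12:90739110-90739149, minus strand): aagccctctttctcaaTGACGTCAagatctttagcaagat
Tra2a (chr6:49264056-49264095, minus strand): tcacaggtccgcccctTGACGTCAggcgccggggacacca
Flcn (chr11:59810065-59810104, minus strand): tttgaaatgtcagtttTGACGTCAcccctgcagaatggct

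Counted from the start of the gene, the element began at position −198 in Ell2 and at −12 in Ppp1r15a, the outermost of the genes shown. Log2 changes of these genes at 3 h ran from 1.35 ± 0.15 (SE of the fit) for Tra2a to 3.33 ± 0.38 for Mcam. Pcsk1 changed by 2.72 ± 0.35, Dusp1 by 2.48 ± 0.14, Dio2 by 1.98 ± 0.14 and Scg2 by 1.46 ± 0.21. A promoter window of 300 bases, 250 before and 50 after the first listed start, was found for 12075 tested genes. The CRE letters, searched on both strands as all motifs here, were in 3.01% of them. They were in 5.58% of the 573 windows of genes higher by at least 2-fold and in 1.77% of the 283 windows of genes lower by at least 2-fold. The element is a description of these windows and not a site of measured binding.

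Other motifs were counted in the same windows, leaving out the immediate early genes, which left 550 risers of at least 2-fold. The TATA box (TATAAA), which sets the start of transcription in some promoters, was in 12.7% of these risers, 5.65% of the fallers and 7.58% of all windows. The letters of AP-1 (TGANTCA), bound by Fos and Jun proteins, were in 8%, 6.36% and 5.04%. The CArG box of the factor SRF was in 2.91%, 2.47% and 1.37%, the E-box (CACGTG) in 10%, 7.77% and 9.66%, and the Egr letters (GCGNGGGCG) in 8.91%, 9.54% and 10.3%. The Egr share was 38.5% in the 26 windows of immediate early genes. An antioxidant response element (TGACNNNGC) was in 16%, 11.3% and 14.5%. No test was made of these shares, and the median G and C content was 58.7%, 59.3% and 60.3% in the risers, the fallers and all windows.

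**Figure D1:**
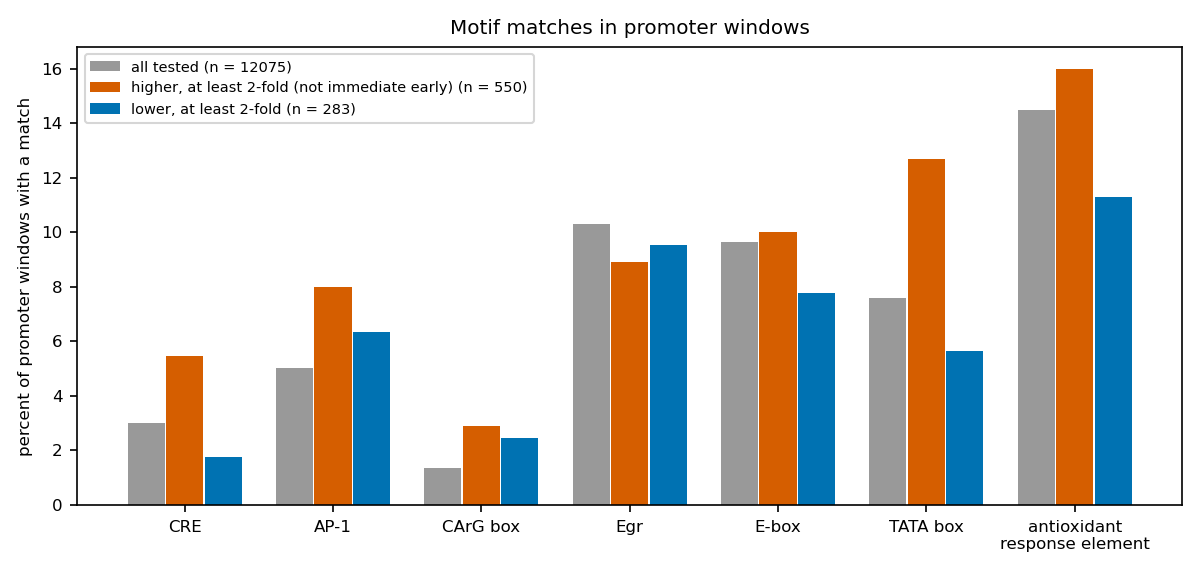
Percent of RefSeq promoter windows (300 bases) with at least 1 match to each motif, for all 12075 tested genes with a window, the 550 genes higher by at least 2-fold outside the immediate early list and the 283 genes lower by at least 2-fold. The orange bar for the risers is above the grey bar for all genes for the CRE (5.45% against 3.01%) and the TATA box (12.7% against 7.58%), and the fallers' blue bar is below it for both.

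Full windows are shown for the genes among the 15 largest rises and 15 largest falls that held a match, with every match in capitals. Windows of 22 of these genes were searched, and those not shown, Cnn1 and Txnip among them, held no match. Ptgs2 held an E-box, Bag3 the AP-1 letters and Mcam the CRE. Gadd45b held an E-box, a TATA box and the Egr letters, and its relative Gadd45g an antioxidant response element, an E-box and a TATA box, with matches on either strand. Dact2, a gene that fell, held the Egr letters.
Ptgs2 (chr1:150099781-150100080, plus strand): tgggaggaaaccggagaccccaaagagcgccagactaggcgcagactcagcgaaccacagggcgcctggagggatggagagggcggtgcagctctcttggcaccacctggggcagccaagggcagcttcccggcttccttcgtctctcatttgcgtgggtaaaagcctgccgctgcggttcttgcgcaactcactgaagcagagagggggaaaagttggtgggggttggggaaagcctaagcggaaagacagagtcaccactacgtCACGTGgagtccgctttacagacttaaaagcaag
Bag3 (chr7:128523333-128523632, plus strand): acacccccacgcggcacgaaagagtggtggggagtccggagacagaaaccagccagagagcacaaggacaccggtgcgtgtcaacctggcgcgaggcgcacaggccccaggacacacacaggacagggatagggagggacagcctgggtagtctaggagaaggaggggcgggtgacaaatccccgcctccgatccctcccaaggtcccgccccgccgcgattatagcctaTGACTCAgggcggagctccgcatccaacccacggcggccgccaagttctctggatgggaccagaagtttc
Mcam (chr9:44134408-44134707, plus strand): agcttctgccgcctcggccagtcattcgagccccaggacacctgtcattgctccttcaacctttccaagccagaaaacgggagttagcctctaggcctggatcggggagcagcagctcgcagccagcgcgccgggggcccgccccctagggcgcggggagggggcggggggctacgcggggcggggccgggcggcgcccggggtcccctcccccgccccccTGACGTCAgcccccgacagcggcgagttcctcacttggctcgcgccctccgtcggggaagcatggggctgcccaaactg
Gadd45b (chr10:80929841-80930140, plus strand): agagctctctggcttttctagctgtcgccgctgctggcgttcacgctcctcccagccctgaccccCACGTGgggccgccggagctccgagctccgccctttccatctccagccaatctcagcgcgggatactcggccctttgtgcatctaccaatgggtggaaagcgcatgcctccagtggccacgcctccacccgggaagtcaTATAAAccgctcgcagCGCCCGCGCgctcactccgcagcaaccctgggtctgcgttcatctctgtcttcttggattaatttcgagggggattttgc
Gadd45g (chr13:51846425-51846724, plus strand): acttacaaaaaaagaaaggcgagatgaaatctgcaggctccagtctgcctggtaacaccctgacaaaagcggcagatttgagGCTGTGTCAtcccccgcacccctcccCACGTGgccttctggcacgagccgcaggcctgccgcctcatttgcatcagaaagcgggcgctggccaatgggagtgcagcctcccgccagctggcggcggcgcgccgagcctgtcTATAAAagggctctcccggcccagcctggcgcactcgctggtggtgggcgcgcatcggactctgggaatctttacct
Dact2 (chr17:14203782-14204081, minus strand): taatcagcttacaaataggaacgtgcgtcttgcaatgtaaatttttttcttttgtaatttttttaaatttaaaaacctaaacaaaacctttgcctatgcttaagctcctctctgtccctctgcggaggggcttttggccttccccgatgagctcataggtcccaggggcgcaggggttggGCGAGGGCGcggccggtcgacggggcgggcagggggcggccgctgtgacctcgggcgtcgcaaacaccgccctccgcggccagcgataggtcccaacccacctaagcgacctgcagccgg

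The 4 libraries held 98882007 to 141865913 counts, so counting error is small for all but the lowest genes. Levels are given as the authors' cRPKM, reads per kilobase scaled to the size of the library, in the order replicate 1, replicate 2. The labelled cell type was present: Stmn2, a marker of all neurons, stood at 780 and 700 cRPKM in the untreated libraries and at 770 and 524 at 3 h, and Snap25 at 260, 293, 265 and 224. Markers of glia were abundant too, among them the glutamate transporter Slc1a3 at 390 and 398 cRPKM untreated and 442 and 635 at 3 h. The libraries numbered 2 stood apart. The astrocyte filament gene Gfap was at 22.4 and 307 cRPKM untreated and at 24.6 and 475 at 3 h, and the choroid plexus gene Ttr at 0.08 and 136 and at 0.13 and 229. This difference recurred in each group, and the fit takes it up with a replicate term. Microglia markers summed to between 1.08 and 1.42 cRPKM in the 4 libraries and endothelial markers to between 0.98 and 1.40.

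Several marker lists differed between the untreated and 3 h libraries, some mainly in replicate pair 2. This bears on every neuronal and glial group described here. Of 8 astrocyte markers, 4 were higher at 3 h (Slc1a3, Gfap, Aldh1l1 and S100b, log2 0.37 to 0.48) and 0 lower. Their summed level was 1023 and 1521 cRPKM untreated and 1066 and 2192 at 3 h. Of 8 progenitor markers, 5 were higher, led by the filament genes Vim (102 and 84.9 to 307 and 460 cRPKM, log2 2.08) and Nes (9.97 and 4.65 to 18.1 and 9.33, log2 0.99, groups overlapping), with Pax6, Mki67 and Top2a. No progenitor marker was called lower. Hes5, a Notch target gene also on that list and picked out with its values known, measured 12.4 and 15.9 cRPKM untreated and at 6.67 and 1.70 at 3 h, a log2 difference of −1.87 ± 0.57 that was not called (adjusted p 0.055, edgeR). With the 4 libraries only, DESeq2, library totals or any library left out 1 progenitor marker was called lower. Of 8 pan-neuronal markers, 3 were lower (Tubb3, Eno2 and Syt1), and the sum went from 2194 and 2114 to 1834 and 1395 cRPKM. Of 8 interneuron markers, 5 were lower (Lhx6, Gad2, Slc32a1, Dlx1 and Sst). Of 7 excitatory neuron markers, 1 was lower (Neurod6), a share of 14.3% against 18.6% of all tested genes. Each 3 h library was set against its untreated partner as a log2 ratio, with 0.1 added to the cRPKM. Medians in pairs 1 and 2 were 0.12 and 0.54 for the astrocyte list and −0.09 and −0.56 for the pan-neuronal list. Over all tested genes they were −0.09 and −0.05, so the pan-neuronal median was below that of all genes in pair 2 only. The part of these marker shifts in the results was not tested. In bulk RNA fewer cells of a type and less RNA per cell cannot be told apart. The 4 astrocyte calls were lost without the replicate block, without untreated replicate 2 or with scaling by library totals. Without either 0.5 h library 1 was called, and without 3 h replicate 1 all 8 were. The 5 interneuron calls were 0 without the block, 3 without untreated replicate 2 and 8 without 3 h replicate 1. The 5 progenitor calls were 1 without the block and 3 without untreated replicate 2.

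**Figure D2:**
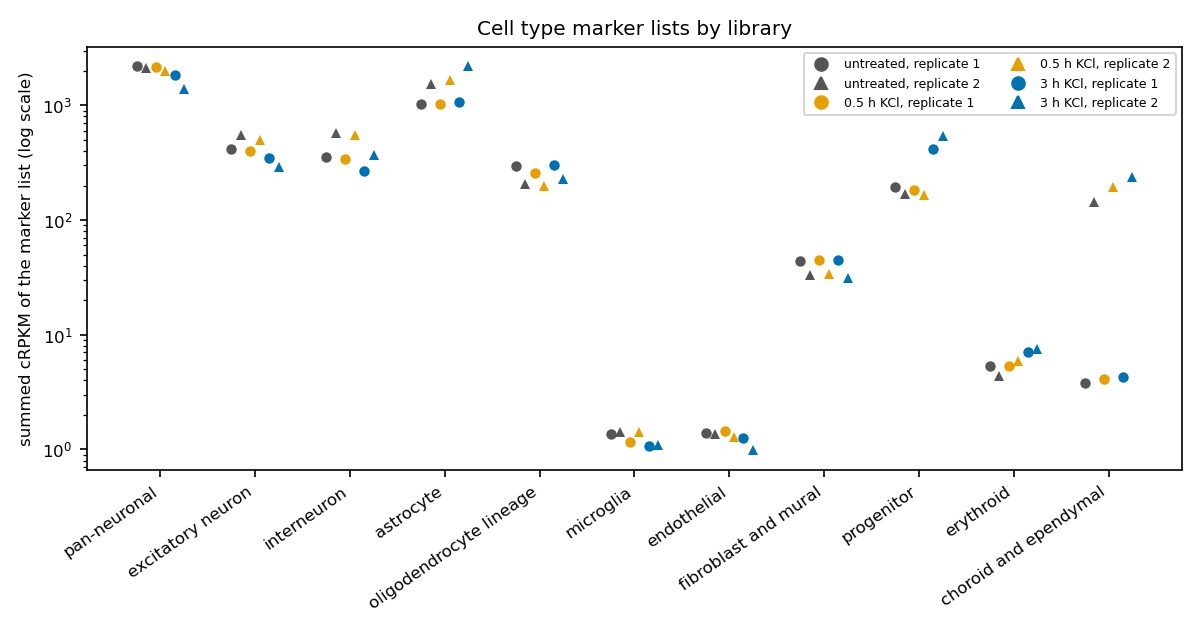
Summed cRPKM (log axis) of each cell type marker list in each of the 6 libraries, coloured by group and shaped by replicate number. Astrocyte and choroid lists are higher in the libraries numbered 2 in every group (3.83 against 142 cRPKM for the choroid list in untreated neurons), and the progenitor list is higher in both 3 h libraries than in the others.

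At an adjusted p under 0.05 in edgeR's quasi-likelihood test with the replicate number as a block, 2963 genes were called higher at 3 h and 2955 lower, 18.6% of tested genes each way. A change of at least 2-fold was called for 763 genes upwards (4.8%) and 408 downwards (2.57%). In cRPKM both 3 h libraries were above both untreated ones for 24.1% of all tested genes and below both for 35.9%. The cRPKM are scaled to library size, without the TMM factors that the calls used. The split of the calls depended on scaling: with library totals in place of TMM factors the counts were 2324 and 3627, 39.1% of calls upwards against 50.1%. Without the replicate block they were 1384 and 1088. They were 1343 and 1112 without untreated replicate 2, and 5242 and 5605 when 3 h replicate 1 was left out. The fit that dropped 3 h replicate 2 called 4887 and 4491.

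The genes with large changes had low untreated levels, few exons and shorter gene spans, but transcripts of similar length. The median gene span was 17.5 kb for risers of at least 2-fold, 16.3 kb for such fallers and 24.4 kb for all tested genes. The median annotated transcript was 3.06 kb for risers of at least 2-fold, 3.15 kb for such fallers and 3.11 kb for all tested genes. The untreated level is part of the change by which these genes were chosen, so level and change are not independent. In untreated neurons the median level was 0.83 cRPKM for the risers of at least 2-fold, 1.86 for the fallers of at least 2-fold and 7.80 for all tested genes. The fallers had a median of 4 exons in their annotated transcript, against 6 for the risers and 9 for all tested genes. Genes of a single exon made up 11.3% of the fallers, 5.61% of the risers and 3.70% of all. No test was made of these differences.

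The 15 largest rises outside the immediate early genes had log2 changes from 3.03 to 5.59 (adjusted p 0.00075 to 0.023, edgeR). At 0.5 h, for comparison, 13 genes in all (0.0818% of those tested) were called higher than untreated, Gadd45g among them (log2 1.59). Several of the 15 encode makers or receivers of local signals. Ptgs2 encodes the inducible cyclooxygenase, which starts prostaglandin synthesis. It stood at 0.09 and 0.21 cRPKM in untreated neurons and at 3.14 and 4.22 at 3 h, a log2 change of 4.76 ± 0.23. S1pr3, a receptor for the lipid sphingosine 1-phosphate, stood at 2.29 and 3.88 cRPKM untreated and at 17.8 and 53.1 at 3 h. Both 3 h libraries were above both untreated ones, and the log2 change was 3.44 ± 0.21. Thbs1 encodes thrombospondin 1, a matrix protein that astrocytes release and that promotes synapse formation, and rose from 1.67 and 1.48 to 10.01 and 28.6 cRPKM (log2 3.55 ± 0.46). Ism1, which encodes the secreted protein isthmin, rose from 0.49 and 0.99 to 8.29 and 3.38. The adhesion gene Mcam rose from 1.25 and 1.21 to 7.43 and 17.7.

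Stress-linked and signalling genes made up much of the rest. Gadd45b and Gadd45g encode small stress sensors linked to DNA demethylation and MAP kinase signalling. Gadd45b stood at 3.32 and 5.31 cRPKM untreated and at 47.2 and 49.4 at 3 h (log2 3.58 ± 0.18). Gadd45g was the most abundant of the 15, at 23.4 and 26.6 untreated and 178 and 218 at 3 h (log2 3.03 ± 0.07). The groups did not overlap for either gene. Bag3, a co-chaperone that steers damaged proteins to autophagy, stood at 1.66 and 2.5 cRPKM untreated and at 10.6 and 50.05 at 3 h (log2 3.62 ± 0.44). Gem encodes a small GTPase of the RGK family that restrains calcium channels, and rose from 4.43 and 4.58 to 24.9 and 85.1 cRPKM (log2 3.47 ± 0.45). Cnn1, the calponin of smooth muscle, had the largest change, from 0.10 and 0.14 to 1.82 and 12.5 cRPKM (log2 5.59 ± 0.78). For Bag3, Gem, Cnn1, Thbs1, S1pr3 and Mcam the 3 h library numbered 2 was the higher one. Leaving out libraries in turn gave log2 changes of 4.04 to 6.72 for Cnn1 with the call kept each time. Csrnp1, a transcription factor gene induced by axin, rose from 0.87 and 0.98 to 13.6 and 8.12 cRPKM. The remaining rises were C2cd4b (0.84 and 1.01 to 14.1 and 11.7), the transcript 4931440P22Rik (0.43 and 0.40 to 14.8 and 6.63), A3galt2, a glycosyltransferase gene (0.40 and 0.26 to 2.63 and 2.67), and Rsph4a, a radial spoke gene of motile cilia (1.18 and 1.26 to 11.3 and 8.40). The library kit does not mark the strand, so reads of an overlapping antisense gene would be counted in with any of these.

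The 15 largest falls ran from −3.37 to −1.65 on the log2 scale (adjusted p 0.0020 to 0.0076, edgeR). Txnip, whose product binds thioredoxin and holds back glucose uptake, was the largest: it stood at 31.7 and 47.0 cRPKM untreated and at 2.17 and 5.78 at 3 h, a log2 change of −3.37 ± 0.21. It was the most abundant of these genes, the next being Amer3 (12.7 and 12.6 to 4.14 and 3.43 cRPKM), a binding partner of the Wnt regulator APC. Genes of DNA-binding zinc finger proteins were Zkscan16 (4.06 and 5.91 to 0.96 and 1.31), Zkscan4 (2.57 and 3.29 to 0.68 and 0.91), Zfp759 (3.15 and 3.23 to 0.60 and 1.09) and Zfp839 (2.29 and 2.57 to 0.66 and 0.81). In each, both 3 h libraries were below both untreated ones. Zc3h6, of another zinc finger type, fell from 2.92 and 3.27 to 0.61 and 1.00 cRPKM. Hif3a, a hypoxia-inducible factor subunit that restrains its relatives, fell from 2.42 and 3.35 to 0.68 and 0.70 (log2 −1.97 ± 0.15). Dact2, a modulator of Wnt and TGF-beta signalling, fell from 6.03 and 7.44 to 1.44 and 1.87 (log2 −1.97 ± 0.11). Receptor genes were Htr4, for serotonin (1.70 and 2.03 to 0.48 and 0.63), and Tnfrsf18, of the tumour necrosis factor family (1.39 and 2.42 to 0.50 and 0.53). The other falls were Col15a1, a basement membrane collagen (5.26 and 3.55 to 1.29 and 1.19), the transporter gene Slc16a9 (3.47 and 4.40 to 0.64 and 1.55), Pabpc5, a poly(A)-binding protein gene without introns (2.98 and 2.57 to 0.77 and 0.76), and Xkr7 (3.15 and 2.66 to 1.12 and 0.69).

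**Figure D3:**
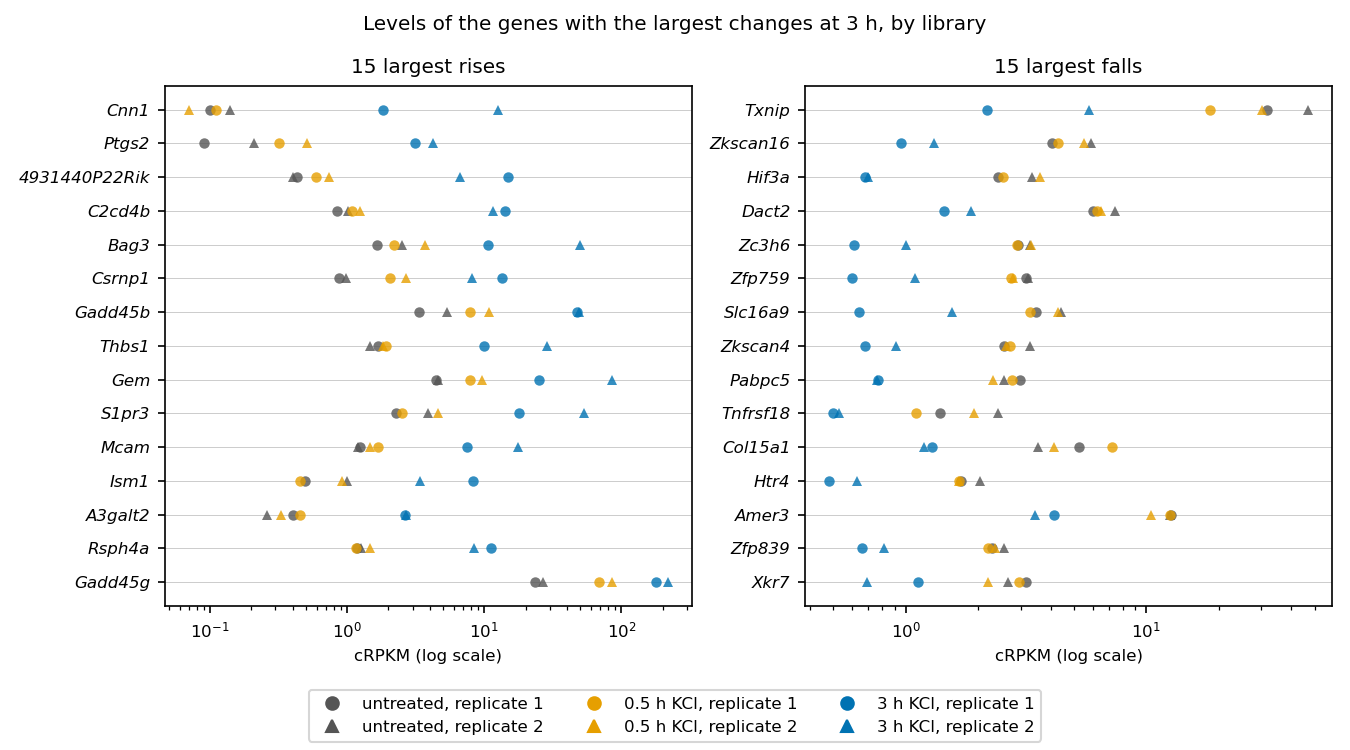
Level in cRPKM (log axis) of the 15 largest rises and the 15 largest falls in each of the 6 libraries, coloured by group and shaped by replicate number. The blue points of the 3 h libraries stand apart from the grey untreated points for every gene, as the selection required, and 0.5 h points lie nearer the untreated ones for most, with Gadd45g (68.1 and 85.3 cRPKM at 0.5 h) between the groups.

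Lists of genes by role were counted next. The lists and their members were chosen with earlier results of these data known, so their counts are a description and not an independent test. Over all tested genes 18.6% were higher and 18.6% lower with a median log2 change of −0.03, and each list is read beside those values. The immediate early list, given only for reference, had 32 of 33 members higher and 1 lower (Klf10) with a median of 2.48. The lists of monoamine, acetylcholine and peptide receptors, glutamate receptors, ion channels, axon guidance and zinc finger genes had many more members lower than higher. Lists of ribosomal proteins, splicing factors, stress responses, actin and cell cycle genes had many more higher than lower. Counts of 5 or fewer moved by over 1.5 times under many of the alternatives, so mainly larger counts are followed across fits. The fit without untreated replicate 2 called the fewest genes over the whole table, and the fit without 3 h replicate 1 the most.

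**Figure D4:**
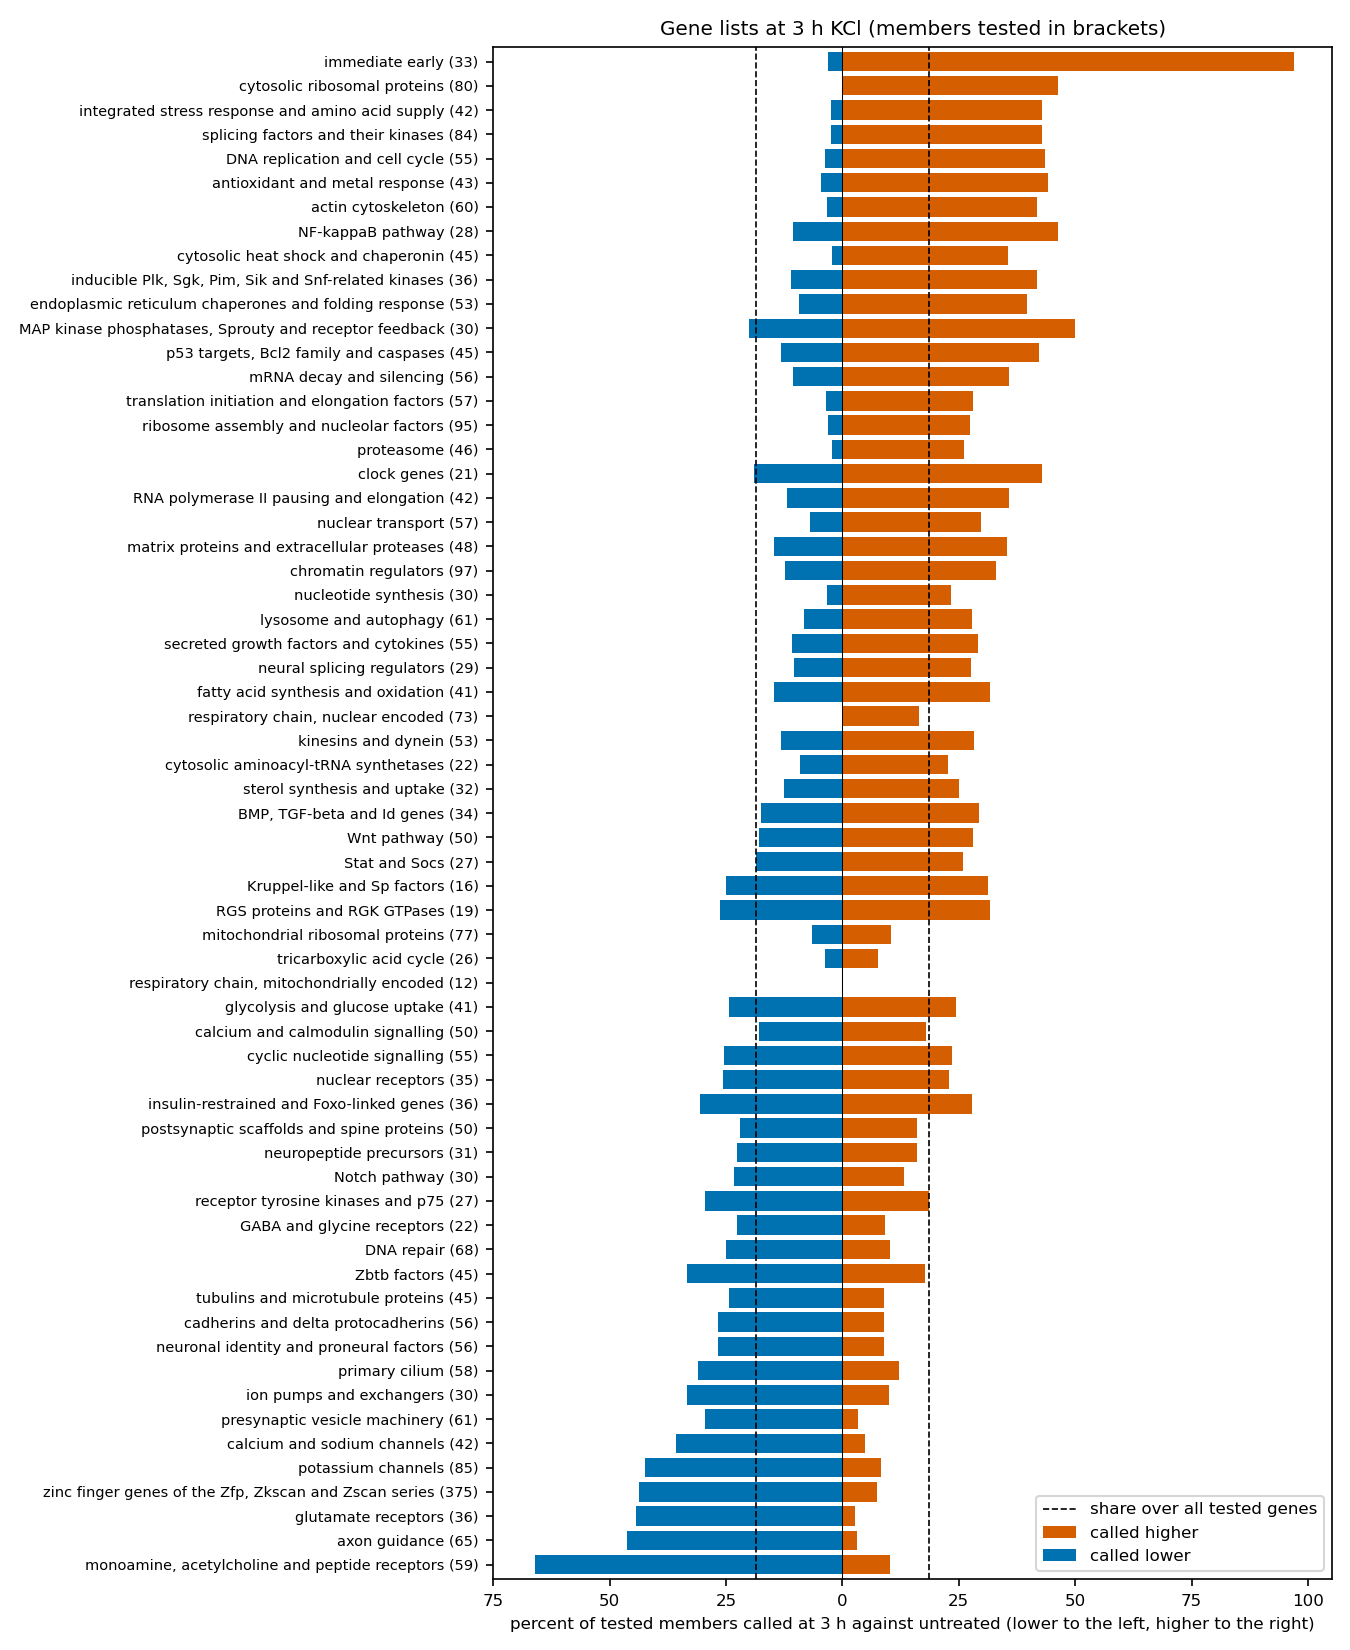
Percent of tested members of the gene lists shown called higher (orange, right) or lower (blue, left) at 3 h against untreated neurons at adjusted p under 0.05, lists sorted by the difference, with the number tested in brackets. Dashed lines mark the 18.6% of all tested genes called each way: receptor, channel, axon guidance and zinc finger lists at the bottom pass the line to the left, and ribosomal protein, splicing factor and stress lists at the top pass it to the right.

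Of 55 growth factor and cytokine genes 16 were higher and 6 lower, with 8 and 1 of them at least 2-fold. Bdnf, the activity-regulated neurotrophin, stood at 7 and 11.7 cRPKM untreated and at 55.5 and 42.4 at 3 h (log2 2.51 ± 0.32). Inhba, a subunit of activin, rose from 0.78 in both libraries to 1.91 and 2.09, Nptx2, a synaptic pentraxin, from 6.67 and 7.19 to 17.3 and 18.2, and Areg, a ligand of the EGF receptor, from 0.07 and 0.42 to 0.85 and 2.02. Fgf18 fell from 3.77 and 3.54 to 1.49 and 1.29 cRPKM (log2 −1.34 ± 0.12). Without untreated replicate 2 the counts were 10 and 1, and without the block 7 and 2. Without 3 h replicate 1, 20 were lower.

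Of 31 neuropeptide and prohormone-processing genes 5 were higher and 7 lower, 16.1% and 22.6%, near the 18.6% of all tested genes each way. Pcsk1, the convertase of prohormones, rose from 6.83 and 11.9 to 65.0 and 47.8 cRPKM, the granin gene Scg2 from 44.5 and 80.5 to 150 and 164, Adcyap1, which encodes the peptide PACAP, from 4.07 and 7.16 to 11.3 and 22.7, and Cartpt from 0.13 and 0.19 to 1.12 and 0.93. Scg3, a further granin gene chosen after its value was seen, rose by 0.27 on the log2 scale. All 7 genes that fell are named here after their values were seen: Sst (log2 −0.44), Vip (−0.72), Tac2 (−0.62), Crhbp (−0.64), Pnoc (−0.55), Cort (−0.67) and Pcsk2 (−0.60). In cRPKM the untreated and 3 h libraries overlapped for Sst, Vip, Tac2, Crhbp, Pnoc and Cort, so these calls rest on the replicate block. Sst, Vip, Tac2, Crhbp, Pnoc and Cort are known from interneurons. Sst is itself in the interneuron marker list, which had 5 of 8 members lower with Sst counted. Fewer of the 31 were lower without the block (0) or untreated replicate 2 (1), and 13 were lower without 3 h replicate 1. Risers outnumbered fallers under several alternatives, by 3 to 0 without the block, 6 to 1 without untreated replicate 2, 6 to 5 without either 0.5 h library, 8 to 6 with DESeq2 and 14 to 7 without 3 h replicate 2. The risers numbered 8 without 3 h replicate 1.

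Matrix proteins and extracellular proteases had 17 of 48 members higher and 7 lower (median log2 0.35). Besides Thbs1, the protease gene Adamts1 rose from 9.43 and 8.73 to 35.4 and 51.2 cRPKM and tissue plasminogen activator, Plat, which is released at synapses, from 11.2 and 11.6 to 37.0 and 27.7. Serpinb2, an inhibitor of plasminogen activators, rose from 0.06 and 0.04 to 0.64 and 0.37, and Sparc, a glial matrix protein gene, from 31.2 and 36.9 to 46.6 and 59.9. The risers numbered 8 without untreated replicate 2, 7 without the block and 29 without 3 h replicate 1. The fallers numbered 1, 1 and 13 in these fits.

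Receptors for monoamines, acetylcholine and peptides formed the list with the largest share of falls, 39 of 59 (66.1%) with 6 higher and a median log2 change of −0.71. Of these, 17 fell at least 2-fold. Htr4, Sstr4, Oprd1, Oprl1 and Chrm1 had the smallest adjusted p (0.0020 to 0.0031, edgeR). Sstr4, a somatostatin receptor gene, stood at 9.63 and 8.83 cRPKM untreated and at 3.38 and 2.51 at 3 h. Oprl1, the receptor of nociceptin, stood at 14.0 and 12.7 and at 5.13 and 5.06, and the delta opioid receptor gene Oprd1 at 1.17 and 1.97 and at 0.42 and 0.71. Chrm1, the main muscarinic receptor gene of hippocampal pyramidal cells, stood at 7.95 and 17.2 cRPKM untreated and at 3.83 and 7.30 at 3 h. Replicate 2 was the higher library in both groups, and its call was lost without the block. The families were covered widely: 9 serotonin receptor genes were lower (Htr1a, Htr1d, Htr1f, Htr2c, Htr3a, Htr4, Htr5a, Htr6 and Htr7), with Drd1, Drd2 and Drd5 of the dopamine receptors and Oprm1, Oprd1 and Oprl1 of the opioid receptors. The 6 that rose were Galr1 (log2 2.78), Tacr1 (1.56), Chrm2 (1.26), Sstr1 (0.86), Adra1a (0.83) and P2ry1 (0.81). These receptors outside the 5 first named were chosen after their values were seen. The fallers numbered 14 without the block and 23 without untreated replicate 2, and 40 with library totals. In replicate pairs 1 and 2 the median log2 ratio was −0.55 and −0.74, against −0.09 and −0.05 over all tested genes.

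Of 36 glutamate receptor and auxiliary subunit genes 16 were lower and 1 higher (median −0.48), all 16 by less than 2-fold. Grm7, a presynaptic metabotropic receptor, went from 22.5 and 22.4 to 13.8 and 11.98 cRPKM. The kainate receptor genes Grik1 (7.98 and 10.2 to 4.50 and 5.38) and Grik3 (22.7 and 15.97 to 12.9 and 8.20) fell, as did the NMDA receptor gene Grin3a (6.36 and 7.04 to 4.28 and 4.27). Its relative Grin3b, near the detection limit, rose from 0.12 in both libraries to 0.31 and 0.32. The fallers numbered 7 without the block, 10 without untreated replicate 2 and 33 without 3 h replicate 1. Of 22 GABA and glycine receptor genes 5 were lower and 2 higher (median −0.29), a share of falls (22.7%) near that of all tested genes, among them Gabrb2 (25.7 and 34.0 to 16.2 cRPKM in both libraries) downwards and Gabra4 (log2 0.37) upwards. The 5 became 3 without the block or untreated replicate 2, 10 without untreated replicate 1 or with library totals, and 18 and 11 without 3 h replicates 1 and 2.

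Among 27 receptor tyrosine kinases 5 were higher (18.5%) and 8 lower (29.6%). The share of rises was near the 18.6% of all tested genes. Fgfr2, a fibroblast growth factor receptor, rose from 13.8 and 14.98 to 62.1 and 115 cRPKM (log2 2.63 ± 0.22), and Erbb4, the neuregulin receptor of interneurons, fell from 8.07 and 11.3 to 4.33 and 5.34. The risers numbered 2 without the block and also when any untreated or 0.5 h library was left out, and 11 and 8 without 3 h replicates 1 and 2. The fallers numbered 5 without the block or untreated replicate 2, and 14 without 3 h replicate 2. Without 3 h replicate 1 the risers outnumbered the fallers, by 11 to 10.

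Of 85 potassium channel genes, which set resting potential and repolarisation, 36 were lower and 7 higher (median −0.42). Kcns2, a silent modifier subunit, stood at 2.39 and 2.95 cRPKM untreated and at 1.00 in both 3 h libraries. The leak channel gene Kcnk3 fell from 3.94 and 3.73 to 1.70 and 1.32, Kcnv1 from 4.83 and 5.29 to 2.20 and 2.25, and Kcnc2, a channel of fast-spiking cells, from 5.69 and 9.48 to 2.94 and 4.37. The inward rectifier gene Kcnj2 rose from 0.59 and 0.81 to 1.25 and 1.64. Of 42 calcium and sodium channel genes 15 were lower and 2 higher (median −0.38), with Scn3a (13.6 and 12.5 to 7.77 and 6.66) and Scn2b (13.8 and 23.2 to 7.93 and 9.81) among the fallers. Of 30 ion pump and exchanger genes 10 were lower and 3 higher, led by the calcium pump gene Atp2b2 (35.05 and 41.8 to 19.2 and 15.8 cRPKM). The fallers of the 3 lists numbered 16, 5 and 4 without the block, 17, 6 and 4 without untreated replicate 2, and 64, 33 and 19 without 3 h replicate 1. With library totals 16 pump genes were lower. The potassium channel risers numbered 1 without the block, 4 without untreated replicate 1 and 13 without 3 h replicate 2.

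Among lists of wiring genes the falls were small, and most members of each list were not called lower. Of 65 axon guidance genes 30 were lower and 2 higher (median −0.43), with every fall under 2-fold. Plxna2, a semaphorin receptor, went from 39.5 and 31.2 to 21.3 and 13.8 cRPKM and the semaphorin gene Sema4d from 13.2 and 14.5 to 7.36 and 6.93. Epha8, an ephrin receptor, went from 4.42 and 5.25 to 2.39 and 2.70. Of 56 cadherin and protocadherin genes 15 were lower and 5 higher. Pcdh1 fell from 49.1 and 53.5 to 23.7 and 17.6 cRPKM and Cdh11 from 39.0 and 31.8 to 26.3 and 18.5, while the giant cadherin gene Fat1 rose from 17.2 and 13.9 to 24.1 and 21.7. Of 61 presynaptic genes 18 were lower and 2 higher (median −0.38), among them the calcium sensors Rph3a (30.7 and 45.3 to 18.8 and 22.6) and Doc2b (19.6 and 19.0 to 13.5 and 9.88), while Syt4, an activity-inducible synaptotagmin, rose from 117 and 104 to 235 and 163. Axon guidance fallers numbered 8 without the block, 12 without untreated replicate 2 and 55 without 3 h replicate 1. For the cadherins these were 5, 8 and 42, with 23 without untreated replicate 1 and 29 without 3 h replicate 2, with DESeq2 or with library totals. For the presynaptic list they were 1 (against 2 risers), 3 and 53, with 33 without untreated replicate 1 or 3 h replicate 2, 34 with DESeq2 and 31 with library totals. In pairs 1 and 2 the presynaptic median was −0.21 and −0.64.

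Postsynaptic scaffolds and spine genes were mixed, 8 of 50 higher (16%) and 11 lower (22%), with a median of −0.35. Both shares were near the 18.6% of all tested genes each way. Arc, which moves AMPA receptors off the surface, rose from 3.60 and 4.66 to 28.6 and 23.2 cRPKM. This gene is on the immediate early list too. Synpo2, an actin-binding protein gene, rose from 0.59 and 0.61 to 2.56 and 3.19, and the scaffold gene Dlg1 from 13.8 and 15.9 to 20.8 and 26.1. The synapse organisers Slitrk3 (16.3 and 20.6 to 7.89 and 8.42) and Slitrk5 (15.5 and 18.0 to 8.26 and 8.46) fell. Higher counts of fallers came from DESeq2 (26), library totals (18) and the fits without untreated replicate 1 (26), 3 h replicate 1 (42) and 3 h replicate 2 (22). The risers numbered 5 without the block or without untreated replicate 1.

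Of 30 MAP kinase phosphatase, Sprouty and receptor feedback genes, which restrain the signalling that induces them, 15 were higher and 6 lower (median log2 0.29), 7 and 1 of them at least 2-fold. Dusp14 rose from 5.40 and 5.29 to 30.4 and 18.6 cRPKM, Dusp16, which acts on the JNK and p38 kinases, from 3.31 and 2.88 to 10.5 and 14.5, Dusp10 from 2.13 and 2.29 to 5.93 and 7.02, and Errfi1, an inhibitor of the EGF receptor, from 6.41 and 7.18 to 28.8 and 21.2. Dusp7, which acts on ERK, went the other way, from 10.9 and 13.4 to 5.59 and 5.85. The count of rises moved by less than 1.5 times in every alternative (11 to 18), and the 6 fallers became 11 without 3 h replicate 1.

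In the list of 36 inducible kinases of the Plk, Sgk, Pim, Sik and related families 15 were higher, 4 lower and 17 not called (median log2 0.29), with 10 of the risers at least 2-fold. The salt-inducible kinase genes Sik1 (7.28 and 5.78 to 27.7 and 22.5 cRPKM), Sik2 (10.01 and 9.51 to 25.1 and 22.3) and Sik3 (14.9 and 16.1 to 35.7 and 36.9) all rose. These kinases hold CREB coactivators in the cytoplasm. Pim1 rose from 2.18 and 2.00 to 9.75 and 6.56, and Plk2 from 43.2 and 38.8 to 120 and 95.5. The 15 rises were between 11 and 20 in the fits that left out a library.

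Second messenger lists had calls both ways, to be read beside the 18.6% of all tested genes called each way. Of cyclic nucleotide genes 23.6% were higher and 25.5% lower, and of RGS and RGK genes 31.6% and 26.3%. The calcium list, at 18% each way, was near the share of all tested genes. Among 55 cyclic nucleotide signalling genes 13 were higher and 14 lower. Crem, which also encodes the inducible CREB repressor ICER, rose from 2.24 and 2.61 to 10.1 and 15.6 cRPKM, Creb5 from 1.59 and 1.12 to 5.58 and 5.56, and the phosphodiesterase gene Pde4d from 11.3 and 12.7 to 21.7 and 22.5. The adenylyl cyclase gene Adcy3 fell from 18.1 and 21.5 to 11.1 and 11.3. Of 19 RGS and RGK genes 6 were higher, among them Rgs2, which quenches Gq signalling (11.99 and 16.4 to 57.7 and 49.7), and Rrad, a relative of Gem (0.51 and 0.45 to 1.37 and 1.19), and 5 were lower, among them Rgs12 (9.45 and 9.06 to 5.92 and 5.74). Of 50 calcium and calmodulin genes 9 were higher and 9 lower: the calcineurin target Nfatc2 rose from 1.6 and 2.40 to 6.51 and 5.78, and the calcium buffer gene Calb1 fell from 10.3 and 14.4 to 5.97 and 7.60. Without untreated replicate 2 the higher and lower counts were 6 and 4, 6 and 1, and 4 and 2 for the 3 lists, and without the block 7 and 6, 5 and 3, and 4 and 3. Without 3 h replicate 1 the fallers numbered 24, 9 and 31. For the calcium list, leaving out either 0.5 h library gave 5 each way, and leaving out untreated replicate 1 gave 4 risers.

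Of 28 NF-kappaB pathway genes 13 were higher and 3 lower (median 0.39). The receptor gene Tnfrsf12a rose from 5.27 and 6.26 to 25.7 and 40.5 cRPKM, the subunit genes Nfkb2 from 1.95 and 2.09 to 4.44 and 7.44 and Nfkb1 from 4.17 and 4.37 to 6.64 and 7.37, and the nuclear inhibitor gene Nfkbiz from 1.89 and 2.84 to 5.48 and 5.88. The kinase scaffold gene Ikbkg fell from 8.51 and 9.17 to 5.29 and 6.42. The 13 became 8 without the block or untreated replicate 2. In the Wnt list of 50 genes, 14 were higher (28%) and 9 lower (18%), the latter near the 18.6% of all tested genes. The receptor gene Fzd5 rose (0.40 and 0.54 to 2.05 and 2.89) and the ligand gene Wnt7a fell (10.7 and 11.1 to 4.73 and 4.83) beside Dact2. In the Notch list of 30 genes 4 were higher (13.3%) and 7 lower (23.3%), against 18.6% of all tested genes each way. The ligand gene Jag2 fell from 9.98 and 10.4 to 5.03 and 4.64 and the target gene Nrarp from 6.79 and 6.03 to 2.93 and 1.51. Wnt and Notch fallers numbered 4 and 2 without the block, 4 and 3 without untreated replicate 2, and 23 and 15 without 3 h replicate 1. The risers were 8 and 2 without the block, 9 and 2 without untreated replicate 2 and 22 and 11 without 3 h replicate 2, and 2 for Notch without untreated replicate 1. Wnt fallers outnumbered risers with library totals (13 to 12) and without 3 h replicate 1 (23 to 17), and Notch risers outnumbered fallers without 3 h replicate 2 (11 to 10).

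The zinc finger genes of the Zfp, Zkscan and Zscan series, DNA-binding proteins of which many act as repressors, were the largest group of falls: 164 of 375 were lower (43.7%) and 28 higher, with 45 lower and 2 higher by at least 2-fold (median −0.35). Besides Zkscan16, Zfp239 fell from 6.32 and 7.94 to 2.56 and 3.25 cRPKM and Zfp827 from 6.83 and 5.74 to 3.07 and 2.44. Zfp184 rose from 1.74 and 1.15 to 10.7 and 7.35 (log2 2.70 ± 0.09) and Zfp516 from 4.86 and 4.30 to 10.7 and 9.81. The median of the list was −0.41 in replicate pair 1 and −0.25 in pair 2, against −0.09 and −0.05 over all tested genes. Any link to the shifts of the marker lists was not tested. The 164 fallers had a median of 5 exons and 4.68 cRPKM in untreated neurons. They numbered 97 without the block and 95 without untreated replicate 2, and the 28 risers 18 and 14, with 77 and 47 without 3 h replicates 1 and 2. Members share sequence, and how the authors' counting treated reads matching several genes is not given in the sources used here, so the values of close relatives are uncertain. Of 45 Zbtb genes, a related family with a BTB domain, 15 were lower (33.3%) and 8 higher (17.8%). The share of rises was near the 18.6% of all tested genes. Among the fallers were Zbtb46 (6.21 and 6.42 to 2.29 and 2.41) and Zbtb8a (2.76 and 3.06 to 0.99 and 1.22). Fallers and risers numbered 9 and 5 without untreated replicate 2.

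**Figure D5:**
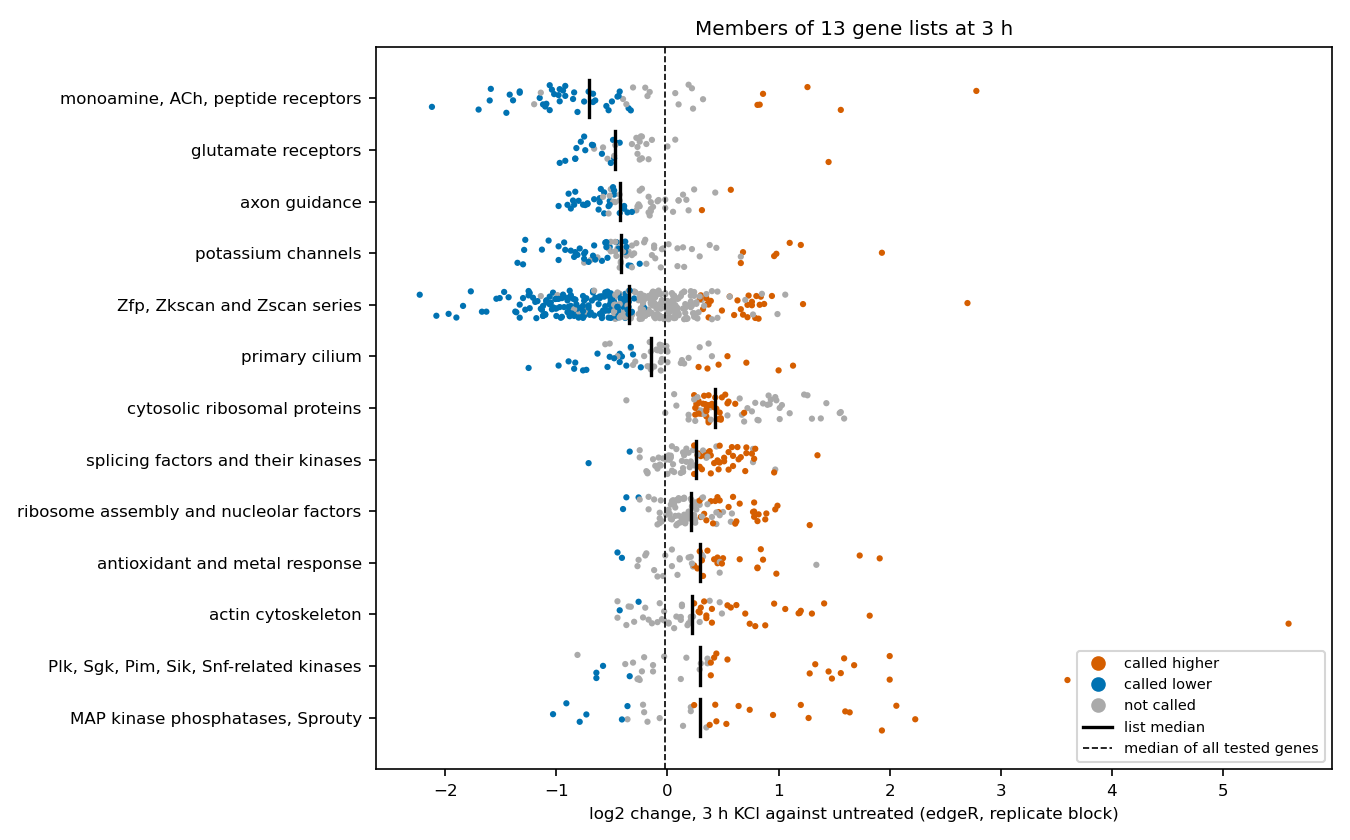
Log2 change at 3 h against untreated neurons of every tested member of 13 gene lists, coloured by call, with the list median as a black bar and the median of all tested genes (−0.03) dashed. Receptor, channel, guidance and zinc finger members lie mostly left of the dashed line (median −0.71 for the monoamine, acetylcholine and peptide receptors), ribosomal protein and splicing factor members mostly right of it (medians 0.42 and 0.26), and the kinase and phosphatase lists have long tails of rises.

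Factors of neuronal identity had 15 of 56 members lower and 5 higher. Neurod1 fell from 10.3 and 9.63 to 5.20 and 3.37 cRPKM, Cux2 from 3.34 and 5.54 to 2.20 and 2.97 and Lhx6, of interneurons, from 8.73 and 13.8 to 4.03 and 6.07. The fallers numbered 3 without the block, 7 without untreated replicate 2 and 40 without 3 h replicate 1, and the risers 0, 2 and 9, with 2 without untreated replicate 1 and 23 without 3 h replicate 2, where they outnumbered the 19 fallers. Clock genes had 9 of 21 members higher (42.9%) and 4 lower (19%), the latter near the 18.6% of all tested genes. The repressor gene Cry1 rose from 7.78 and 7.06 to 14.1 and 16.3, Arntl from 9.84 and 9.05 to 15.6 and 16.6 and the nuclear receptor gene Rorb from 2.58 and 2.45 to 10.2 and 18.1, while the output factor gene Dbp fell from 7.72 and 13.7 to 2.59 and 4.96. The fallers became 1 without the block and 8 without 3 h replicate 1.

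Of 97 chromatin regulators 32 were higher and 12 lower: besides the Gadd45 genes, the remodeller Chd2 rose from 11.7 and 11.6 to 31.9 and 27.8 cRPKM, the corepressor Bcor from 5.86 and 6.00 to 13.03 and 13.5 and the demethylase Kdm3a from 11.7 and 12.99 to 24.4 and 25.96. Of 42 genes of RNA polymerase II pausing and elongation 15 were higher and 5 lower, with Ell2 (1.91 and 2.36 to 6.76 and 12.7), Aff1 (4.34 and 4.38 to 15.6 and 21.9), a scaffold of the super elongation complex, and the cyclin gene Ccnk (14.7 and 13.7 to 32.7 and 29.6). Of 57 nuclear transport genes 17 were higher and 4 lower, among them the pore genes Nup98 (7.80 and 7.43 to 18.2 and 19.3) and Ranbp2 (18.5 and 19.0 to 38.3 and 49.6). The risers of the 3 lists numbered 18, 11 and 11 without the block and 21, 8 and 8 without untreated replicate 2. The 4 transport genes that fell lost their calls without the block and whenever an untreated or 0.5 h library was left out. Transport risers numbered 29 and 26 without 3 h replicates 1 and 2 and 11 with library totals. The chromatin fallers were 3 without the block, 2 without untreated replicate 2, 6 without either 0.5 h library, 31 and 23 without 3 h replicates 1 and 2 and 19 with library totals. The elongation fallers were 2, 1, 2, 10, 9 and 8 in the same fits.

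Splicing factors and their kinases had 36 of 84 members higher and 2 lower (median 0.26), nearly all by small amounts. Prpf38b rose from 18.9 and 17.3 to 32.4 and 35.5 cRPKM, the branch point factor gene Sf1 from 35.2 and 33.6 to 54.9 and 53.5, U2af1, of the 3′ splice site, from 45.5 and 43.9 to 64.5 and 71.6, and Snrpb, a core protein of the small ribonucleoproteins, from 49.8 and 46.7 to 71.2 and 72.9. The RNA-binding protein gene Tia1 fell from 25.6 and 23.96 to 14.5 and 14.7. Of 56 mRNA decay and silencing genes 20 were higher and 6 lower, with the decay adaptors Samd4 (4.88 and 6.18 to 15.02 and 22.1), Btg1 (10.9 and 8.73 to 20.2 and 19.4) and Tob1 (14.7 and 15.8 to 21.3 and 24.2). The risers of both lists numbered 18 and 10 without the block, 15 and 10 without untreated replicate 2, and 58 and 32 without 3 h replicate 1. Splicing risers were 56 without 3 h replicate 2. Decay risers were 13 without untreated replicate 1 or with library totals. The decay fallers were 2 without the block or untreated replicate 2, 3 without untreated replicate 1 or either 0.5 h library, and 10 and 12 without 3 h replicates 1 and 2.

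Changes of ribosomal protein genes were small: 37 of 80 were higher, 0 lower and 0 changed by 2-fold among those called (median 0.42). Rpl13a stood at 379 and 391 cRPKM untreated and at 461 and 543 at 3 h (log2 0.43 ± 0.07), and Rpl23 at 208 and 204 and at 247 and 292 (0.44 ± 0.08). Both 3 h libraries were above both untreated ones for either gene, by less for replicate 1. This list was sensitive to the fit: 7 were called without the block, 23 with library totals, 0 without untreated replicate 2, and 71 and 56 without 3 h replicates 1 and 2. Its median was 0.16 in pair 1 and 0.54 in pair 2. At an unadjusted p under 0.05 edgeR had 50 higher and 1 lower, and DESeq2 called 52 higher and 0 lower after adjustment.

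Of 95 ribosome assembly and nucleolar genes 26 were higher and 3 lower (median 0.21). The methyltransferase gene Fbl of ribosomal RNA rose from 34.3 and 28.2 to 79.8 and 66.3 cRPKM (log2 1.28 ± 0.08) and Nolc1, a nucleolar phosphoprotein gene, from 20.4 and 19.7 to 33.2 and 33.0. Of 57 translation factor genes 16 were higher and 2 lower, with Eif1, of start codon choice, from 214 and 181 to 308 and 402 and Eef2k, the kinase that slows elongation, falling from 21.6 and 17.8 to 14.8 and 11.4. The risers of both lists numbered 17 and 6 without the block, 13 and 1 without untreated replicate 2, and 74 and 36 without 3 h replicate 1. Translation risers were also 7 without untreated replicate 1, 9 without either 0.5 h library and 38 without 3 h replicate 2.

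Stress and folding lists had more members higher than lower, with most members of each not called. Of 42 genes of the integrated stress response and amino acid supply 18 were higher and 1 lower (median log2 0.19). The factor gene Atf4 stood at 194 and 176 cRPKM untreated and at 364 and 333 at 3 h (log2 0.97 ± 0.07). The eIF2 phosphatase subunits Ppp1r15a (23.8 and 24.9 to 75.2 and 77.0) and Ppp1r15b (19.6 and 17.4 to 48.2 and 45.2) and the amino acid transporter gene Slc38a2 (29.8 and 23.5 to 70.4 and 63.6) rose. The groups did not overlap for any of these genes. Of 53 endoplasmic reticulum genes 21 were higher and 5 lower, with the co-chaperone Dnajb9 (20.2 and 21.3 to 45.7 and 67.2) and the stress sensor Ern1 (2.59 and 2.57 to 4.44 and 4.74). Of 45 cytosolic heat shock and chaperonin genes 16 were higher and 1 lower, with Dnajb4 (13.8 and 16.3 to 40.01 and 44.5) and Hspb8, the small heat shock partner of Bag3 (9.11 and 8.93 to 14.5 and 21.5). The risers of the 3 lists numbered 10, 9 and 6 without the block and 11, 7 and 4 without untreated replicate 2. For the endoplasmic reticulum list they were 12 without untreated replicate 1, 13 without 0.5 h replicate 2 and 35 without 3 h replicate 1, and its fallers ranged from 1 to 11. For the heat shock list they were 5 without untreated replicate 1, 10 without either 0.5 h library or with library totals, and 29 without either 3 h library.

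Metabolic lists differed from each other. Of 43 antioxidant and metal response genes 19 were higher and 2 lower: Osgin1 rose from 0.52 and 0.88 to 1.73 and 3.44 cRPKM and Gclc, the rate-limiting enzyme of glutathione synthesis, from 18.0 and 19.2 to 31.2 and 33.9, while Keap1, the inhibitor of the factor Nrf2, fell from 15.6 and 16.04 to 11.2 in both libraries. The risers numbered 6 without the block or untreated replicate 2 and 30 without 3 h replicate 1. Of 41 glycolysis and glucose uptake genes 10 were higher and 10 lower, 24.4% each way against 18.6% of all tested genes. The glucose transporter gene Slc2a1 rose from 7.70 and 11.02 to 20.4 and 22.2, the lactate transporter gene Slc16a1 from 17.0 and 14.98 to 41.3 and 34.2, and Slc2a6, a further transporter of the family, fell by 0.63 on the log2 scale. Among 30 nucleotide synthesis genes 7 were higher and 1 lower, with Impdh2, which controls guanine nucleotide synthesis, rising from 35.97 and 35.9 to 93.1 and 100.46. Of 41 fatty acid genes 13 were higher (31.7%) and 6 lower. The nuclear-encoded respiratory chain had 12 of 73 members higher (16.4%) and the tricarboxylic acid cycle 2 of 26 (7.69%), with 1 lower (3.85%), against 18.6% of all tested genes each way. Of the 12 mitochondrially encoded genes edgeR called 0 (5 higher and 0 lower at an unadjusted p under 0.05), and DESeq2 called 5 higher. Glycolysis risers and fallers numbered 4 and 2 without the block and 6 and 3 without untreated replicate 2, with 17 and 19 risers without 3 h replicates 1 and 2 and 6 and 5 without untreated replicate 1. Fatty acid risers and fallers numbered 4 and 2 without the block, 3 and 2 without untreated replicate 2, 6 and 6 with library totals and 22 and 12 without 3 h replicate 1, with 7 risers without untreated replicate 1 and 10 fallers without 3 h replicate 2. Nucleotide risers were 4 without the block and 13 without 3 h replicate 1. The nuclear respiratory chain list had 0 members lower, 1 at an unadjusted p under 0.05 and 0 with DESeq2, and its risers ranged from 0 without untreated replicate 2 to 46 without 3 h replicate 2.

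Of 60 actin cytoskeleton genes 25 were higher and 2 lower (median 0.22), 8 of the former at least 2-fold. The focal adhesion genes Vcl (7.46 and 10.7 to 16.4 and 23.5 cRPKM) and Tln1 (7.32 and 6.91 to 11.2 and 14.1) rose, as did Tagln2 and Actn1 by 1.20 and 0.70 on the log2 scale. Of 45 tubulin and microtubule genes 11 were lower and 4 higher. Tubb3, the neuronal isotype, stood at 607 and 453 cRPKM untreated and at 253 and 158 at 3 h (log2 −1.33), Tubb4a at 157 and 168 and at 81.0 and 64.9, and Tubb5 at 526 and 410 and at 332 and 245. Near-identical tubulin coding sequences can share reads. Of 58 primary cilium genes 18 were lower and 7 higher, with Cc2d2a (4.69 and 5.88 to 2.22 and 3.34) and Rpgrip1l (4.89 and 4.67 to 2.85 and 2.59), both of the transition zone, downwards and Gli3, a Hedgehog effector, upwards (3.24 and 2.97 to 6.45 and 6.65). Actin risers numbered 12 without the block, 11 without untreated replicate 2 and 38 without 3 h replicate 2. Tubulin fallers were 2 without the block, 6 without untreated replicate 2, and 29 and 18 without 3 h replicates 1 and 2. Cilium fallers were 11 without the block, 9 without either untreated library and 28 without either 3 h library.

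Of 45 p53 targets, Bcl2 family members and caspases 19 were higher and 6 lower: the survival gene Mcl1 rose from 26.03 and 23.0 to 61.9 and 71.2 cRPKM and the antiproliferative gene Btg2 from 12.3 and 10.3 to 32.5 and 29.5, while the initiator caspase gene Casp9 fell from 12.5 and 11.2 to 6.87 and 6.75. Btg2 is on the immediate early list too. Of 55 DNA replication and cell cycle genes 24 were higher and 2 lower (median 0.31). The cyclin genes Ccnd3 (16.2 and 17.4 to 33.7 and 44.3) and Ccnd1 (18.4 and 20.3 to 32.7 and 33.7), the replication clamp gene Pcna (46.4 and 37.3 to 70.5 and 68.8) and the licensing gene Cdc6 (0.89 and 0.71 to 1.96 and 1.45) rose. The proliferation markers Mki67 and Top2a, listed with the progenitor markers, rose as well, and their part in these counts was not tested. Of 68 DNA repair genes 17 were lower (25%) and 7 higher (10.3%), against 18.6% of all tested genes each way. The median of this list in pair 2 (−0.02) was not below that of all tested genes (−0.05). Brca2 fell from 1.19 and 1.16 to 0.51 and 0.64, Rad50 from 3.40 and 3.13 to 1.70 and 1.66 and Mlh3 from 5.62 and 6.29 to 1.98 and 3.01, while the checkpoint kinase gene Chek1 rose from 1.16 and 0.94 to 3.57 and 2.76. Without the block the p53 and cell cycle risers numbered 11 and 6, without untreated replicate 2 both numbered 10, and without 3 h replicate 1 the cell cycle risers were 41. The repair fallers were 8 without the block, 7 and 6 without untreated replicates 1 and 2, 10 without either 0.5 h library and 31 without 3 h replicate 2, and the median in pairs 1 and 2 was −0.27 and −0.02.

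Several smaller regulatory lists held single genes with large changes. Of 29 neural splicing regulators 8 were higher and 3 lower: Ptbp1, the repressor of neuronal exons, rose from 16.8 and 14.0 to 54.7 and 98.0 cRPKM and Mbnl2 from 20.3 and 30.1 to 78.5 and 71.0 cRPKM, while Celf2 fell from 80.2 and 76.9 to 55.2 and 46.2 cRPKM. Of 34 BMP, TGF-beta and Id genes 10 were higher (29.4%) and 6 lower (17.6%), the latter near the 18.6% of all tested genes. Risers included the decoy receptor gene Bambi (0.54 and 0.76 to 2.03 and 3.07) and the inhibitor of differentiation Id3 (8.37 and 3.21 to 19.5 and 6.21), Id3 with overlapping groups. Of 36 insulin-restrained and Foxo-linked genes, a list that holds Txnip and Hif3a, 10 were higher and 11 lower, and Irs2, an adaptor of the insulin receptor, rose from 15.1 and 15.2 to 44.7 and 44.7 cRPKM. In the Stat and Socs list of 27 genes 7 were higher (25.9%) and 5 lower (18.5%), the latter near the 18.6% of all tested genes. Stat3 rose from 17.2 and 21.1 to 33.2 and 46.9 cRPKM. Splicing regulator risers numbered 4 without the block or untreated replicate 2 and 5 without untreated replicate 1 or with library totals. In that list fallers outnumbered risers with the 4 libraries only (8 to 7), with library totals (6 to 5) and without untreated replicate 1 (11 to 5) or 3 h replicate 1 (13 to 10). The BMP list had 2 risers and 1 faller without the block, 1 faller without untreated replicate 2, 16 risers without 3 h replicate 2 and 11 fallers without 3 h replicate 1. The Foxo-linked list had 4 and 6 without the block, 6 and 7 without untreated replicate 2, 17 fallers without 3 h replicate 1 and 16 risers against 14 fallers without 3 h replicate 2. The Stat list had 3 risers without the block, 4 without untreated replicate 2 and 11 without 3 h replicate 1.

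Transport along the cytoskeleton and lipid handling were mixed. Of 53 kinesin and dynein genes 15 were higher and 7 lower, and 3 of the named risers, Kif11 (4.08 and 2.56 to 6.31 and 5.57), Kif18a (1.77 and 1.28 to 5.12 and 4.84) and Kif23 (2.19 and 1.52 to 3.20 and 2.45), act in cell division. Of 32 sterol genes 8 were higher and 4 lower, and the cholesterol exporter gene Abcg1 fell from 5.94 and 8.82 to 2.35 and 3.51 cRPKM. Of 61 lysosome and autophagy genes 17 were higher and 5 lower, led by the galactosidase gene Gla (5.59 and 6.22 to 24.4 and 22.2). Without the block the kinesin, sterol and lysosome risers numbered 3, 1 and 9, and without untreated replicate 2 they numbered 4, 5 and 3. Without untreated replicate 1 those were 8, 4 and 10. Kinesin fallers were 0 without the block, 2 without untreated replicate 2, 3 without either 0.5 h library, 21 and 14 without 3 h replicates 1 and 2, 11 with DESeq2 and 13 with library totals, and without 3 h replicate 1 they outnumbered the 18 risers. Sterol fallers outnumbered risers without the block (2 to 1) and without 3 h replicate 1 (13 to 10). Sterol risers were 14 without 3 h replicate 2, and lysosome risers were 30 and 29 without 3 h replicates 1 and 2 and 10 without 0.5 h replicate 2.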

How the data were processed

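RNA-seq was made from total RNA (TriReagent, TruSeq v2 kit, which does not mark strand, per the labels' protocols). The submitters' processing notes name Bowtie and mouse build mm9. Versions, annotation and the treatment of reads matching several genes were not stated there. The deposited files list, for 21553 genes with a value, raw read counts per gene and the authors' cRPKM, a form of RPKM whose length correction was not stated. Symbols were matched for 20451 genes. Counts of all 6 libraries were fitted with edgeR 4.0.16 (R 4.3.3), quasi-likelihood F test, TMM scaling, filterByExpr minimum count 10, group plus replicate number as a block, leaving 2 residual degrees of freedom. A gene was called where its p, adjusted by the Benjamini-Hochberg method over all tested genes, was under 0.05. SE is the log2 change divided by the square root of F. The filter left 15895 genes holding 99.995% of counts. The script was tested on simulated data.

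Same-numbered libraries deviated together: the replicate difference in log2 CPM correlated across genes with r = 0.577 between the untreated and 3 h groups, and 0.805 and 0.613 for the other pairs of groups. Genes are not independent replicates. Alternatives were no block, 4 libraries only, DESeq2 1.42.0, limma-voom 3.58.1, library totals, RLE scaling, no filter, and each library left out.

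Gene lists and members were chosen with earlier results of these data known. Named genes are the 15 largest rises and 15 largest falls (called, mean cRPKM of at least 1, groups separated, outside the immediate early list), up to 5 called members of each list with the smallest adjusted p, and the 3 most abundant markers of each cell type list.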

Additional observations from a re-analysis of the deposited data

Results flagged for a closer look

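The response at 3 h was compared with that at 0.5 h in the same fit, as a test of the difference itself. Over all tested genes 2477 were called higher at 3 h than at 0.5 h and 2484 lower, 15.6% each way (edgeR, adjusted p under 0.05). Of the 15 largest rises at 3 h 15 also differed between 3 h and 0.5 h, and of the 15 largest falls 15 did. Both comparisons share the 3 h libraries, and the genes were chosen for their size at 3 h, so these counts are a description.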

How the results depend on the processing

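Without the replicate block, that is without pairing libraries by number, 1384 genes were called higher and 1088 lower, with 256 lower by at least 2-fold. Leaving out 1 library at a time gave 1343 to 5242 higher, 1112 to 5605 lower and 323 to 783 lower by at least 2-fold. The count higher by at least 2-fold stayed within 1.5 times of the 763 under all alternatives. The cause of these shifts was not tested. With 1 library left in a group, its spread is assumed to be that of the others. Of 354 named genes that were called, 239 were called under all 13 alternatives. Without the block 93 of the calls were lost, without untreated replicate 2 67 and with library totals 12. Over all genes the balance turned, from 2963 higher and 2955 lower to 2324 and 3627 with library totals. Some named genes that were not called changed sign, such as Stmn2, at log2 −0.38 to 0.07 with a library left out. No named gene that was called changed direction. The balance of higher and lower members did turn under at least 1 alternative in several gene lists, with the counts given beside them: neuropeptides, receptor tyrosine kinases, presynaptic genes, Wnt, Notch, neuronal identity factors, Foxo-linked genes, neural splicing regulators, sterol synthesis and kinesins. It also turned in Rgs, cyclic nucleotide, nuclear receptor, tricarboxylic acid cycle and mitochondrial ribosomal genes.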
